A study of Mus musculus with 9 samples.

Results

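Nqo1 and Acsm4 are enzyme genes used as markers of the dorsal zone of the olfactory epithelium. They were taken by symbol as 2 of the 55291 genes in the deposited tables, and both had counts in all 9 libraries and entered every test. Polyadenylated RNA was sequenced from sorted mature olfactory sensory neurons of mice, in 3 groups of 3 libraries. The series' design text speaks of duplicates, whereas 3 libraries are listed for each group, and n = 3 follows the list. One group carried Olfr73-IRES-GFP, another Olfr1507-IRES-GFP and the last Olfr160-IRES-mCherry, alleles in which the receptor transcript also encodes a fluorescent protein. Neurons were collected by high GFP or mCherry and low DAPI, so what all groups share is the reporter-based sort and what differs is the tagged receptor, the reporter colour and the mice. Neither treatment nor time differed, and the labels used here give no age, strain or number of animals. Whether replicate libraries derive from different mice is not stated there, so the p-values reflect library-to-library spread alone, which may be technical.

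The olfactory epithelium is divided into zones along its dorsal to ventral axis, and an odorant receptor gene is normally chosen by neurons of a restricted zone. Olfr73 and Olfr160 are receptors of dorsal neurons, and Olfr1507, also called MOR28, is a receptor of ventral neurons. Nqo1 encodes a cytosolic quinone reductase that moves electrons from NADH or NADPH to quinones by a paired transfer, which avoids the reactive semiquinone. In many tissues it is a standard target of the transcription factor NRF2, the product of Nfe2l2, which KEAP1 holds in check, and of the aryl hydrocarbon receptor, the product of Ahr. Acsm4, also called O-MACS, encodes a mitochondrial acyl-CoA synthetase that joins medium-chain fatty acids to coenzyme A. Its transcript has been described in neurons and supporting cells of the dorsal zone.

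Nqo1 lies on the minus strand of chromosome 8 from 107388225 to 107403206, and Acsm4 on the plus strand of chromosome 7 from 119690026 to 119714565 (mm10, GENCODE M21). Acsm4 sits between Acsm1 and Acsm3 in a run of 5 related genes. The tables assign 1 transcript to each, of 1553 bases in 6 exons for Nqo1 and 2152 bases in 14 exons for Acsm4. No other annotated gene overlaps either locus, and the expected counts of both were whole numbers in all 9 libraries. The 250 bases before each RefSeq start are shown because the genes share their low group and the best known regulators of Nqo1 bind defined motifs. Capitals mark the only match to any of 4 motifs searched on both strands.

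Nqo1, chr8:107403206-107403455, minus strand (GRCm38.p6, RefSeq): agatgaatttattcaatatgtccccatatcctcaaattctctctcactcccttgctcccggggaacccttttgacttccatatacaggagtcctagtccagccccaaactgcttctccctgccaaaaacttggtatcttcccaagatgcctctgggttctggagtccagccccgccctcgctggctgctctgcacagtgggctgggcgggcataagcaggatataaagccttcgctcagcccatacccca
Acsm4, chr7:119689776-119690025, plus strand (GRCm38.p6, RefSeq): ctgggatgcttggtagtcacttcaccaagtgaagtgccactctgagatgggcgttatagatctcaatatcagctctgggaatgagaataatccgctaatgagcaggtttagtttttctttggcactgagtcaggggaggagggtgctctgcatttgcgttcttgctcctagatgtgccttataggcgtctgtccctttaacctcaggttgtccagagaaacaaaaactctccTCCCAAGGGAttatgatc

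The capitals in Acsm4 are TCCCAAGGGA, a match to the Olf/Ebf site (TCCC and GGGA with any pair of bases between), which begins 18 bases before the start and reads as the same motif on both strands. Of 32851 windows of this kind, 0.779% held the motif. TGACNNNGC, the antioxidant response element core bound by NRF2, occurred in 10.2% of windows and in neither gene's window. The dioxin response element core GCGTG, bound by the aryl hydrocarbon receptor, occurred in 28.2% and the homeodomain core TAATTA in 4.84%, again in neither. These are letter matches in a short window and say nothing of binding there or of elements elsewhere. The window of Nqo1 held 53.2% G or C and that of Acsm4 47.2%, beside a median of 52.4%.

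Libraries held 17212807 to 36230606 expected counts. The tagged receptor took 22.8% to 32.8% of the counts on Olfr genes in Olfr73, 85.1% to 94.7% in Olfr1507 and 2.08% to 10.1% in Olfr160, so most receptor counts came from other receptors in Olfr73 and Olfr160. The 10 markers of mature olfactory neurons all had counts in every group, and together made up 5.32% to 5.44% of counts in Olfr73, 8.24% to 8.44% in Olfr1507 and 2.99% to 4.70% in Olfr160. The 16 markers of supporting and gland cells, all with counts in every group, made up 0.424% to 0.758%, 0.0308% to 0.0529% and 2.27% to 3.94%. The 10 markers of respiratory epithelium, of which 1 was at 0 in every group, made up 0.123% to 0.266%, 0.0216% to 0.0326% and 0.524% to 1.44%. Immature neuron markers stood at 0.298% to 0.518% in all groups.

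Nqo1 was abundant in the Olfr73 and Olfr160 libraries and close to absent from those of Olfr1507. On the TPM scale, transcript abundance scaled by length by the authors, it stood at 1399, 838 and 1369 in Olfr73 libraries 1 to 3, which placed it between rank 76 and rank 122 of all genes. It stood at 683, 1024 and 1669.7 TPM in Olfr160, ranks 61 to 157. In Olfr1507 it stood at 2.38, 10.3 and 4.06 TPM, ranks 6804 to 9837. The highest Olfr1507 library thus lay far below the lowest library of either other group, while the Olfr73 and Olfr160 libraries overlapped. Olfr73 library 2 was the low one of its group and Olfr160 library 3 the high one of all 9.

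Acsm4 separated the groups into 3 levels with no overlap. It stood at 1160.3, 1426 and 1459.8 TPM in Olfr73, ranks 68 to 90. In Olfr160 it stood at 263.5, 396 and 517 TPM, ranks 234 to 522. In Olfr1507 it stood at 2.72, 7.69 and 4.11 TPM, ranks 7501 to 9602. The order of the group means was thus Olfr73 above Olfr160 above Olfr1507 for both genes, but for Nqo1 the first step, 1202 ± 315 against 1126 ± 501 TPM (mean ± SD, n = 3), lay within the spread of the libraries.

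**Figure D1:**
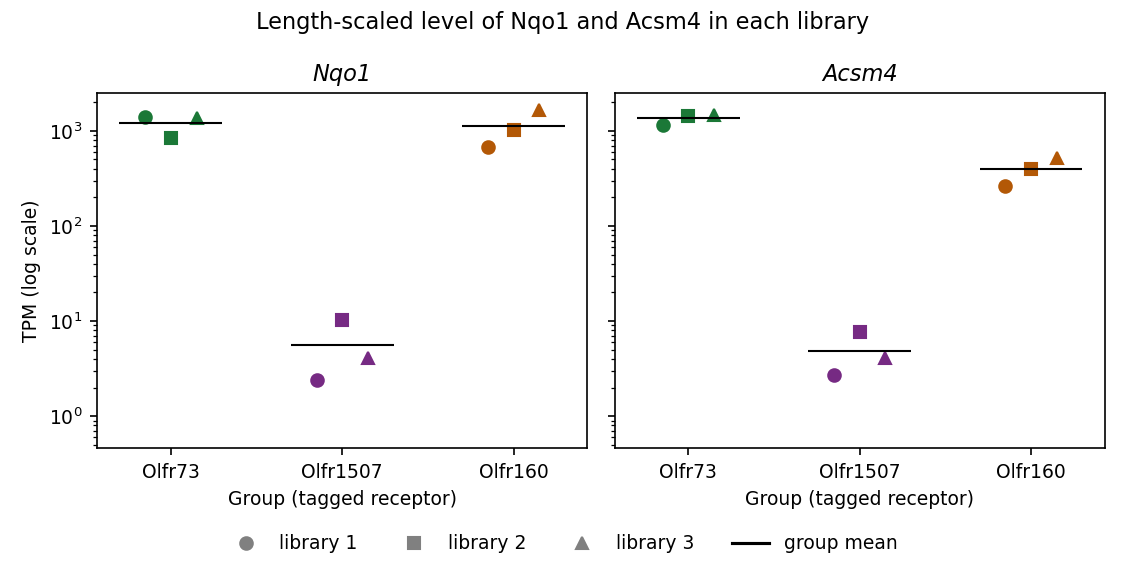
TPM (log scale) of Nqo1 (left) and Acsm4 (right) in each of the 9 libraries, 3 per group, with marker shapes for the library number and bars for group means. All Olfr1507 points lie at or below 10.3 TPM, and Acsm4 is higher in each Olfr73 library than in any Olfr160 library.

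Normalised read counts (CPM, scaled by edgeR's trimmed mean of M values, TMM) were used for the tests between groups. They are not divided by gene length, so they serve to compare a gene across groups and not genes with each other. The Nqo1 mean was 811 ± 208 CPM for Olfr73, 4.19 ± 3.17 for Olfr1507 and 731 ± 315 for Olfr160 (SD, n = 3). Acsm4 stood at 1434 ± 204, 5.74 ± 3.11 and 402 ± 126 CPM. In bulk libraries, fewer cells with a transcript and less of it per cell cannot be told apart.

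Both genes were lower in Olfr1507 than in Olfr73, where 34.4% of the 16399 tested genes passed an adjusted p of 0.05 in edgeR's quasi-likelihood test and 19.9% were lower. The log2 fold change of Nqo1 was -7.54 (SE 0.61, edgeR adjusted p = 6.47e-05), a 186-fold difference. That of Acsm4 was -7.93 (SE 0.46, edgeR adjusted p = 9.71e-06), a 244-fold difference. Counted from the most negative log2 fold change of all genes tested, Acsm4 was number 106 and Nqo1 number 143. The median over all genes tested was -0.15.

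Both genes were also lower in Olfr1507 than in Olfr160, where 48.4% of genes passed and 27.7% were lower. The log2 fold change was -7.39 for Nqo1 (SE 0.61, edgeR adjusted p = 2.96e-05) and -6.10 for Acsm4 (SE 0.42, edgeR adjusted p = 1.59e-05). In this comparison Nqo1 was number 644 from the most negative and Acsm4 number 1306, beside a median over all genes of -0.14. Olfr1507 library 2 carried the highest level of both genes in its group. Without it the log2 fold changes of Nqo1 were -8.39 against Olfr73 and -8.24 against Olfr160, and those of Acsm4 -8.47 and -6.64.

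In Olfr73 against Olfr160 the genes differed. Acsm4 was 3.56-fold higher in Olfr73 (1.83 ± 0.34 SE on the log2 scale, edgeR adjusted p = 0.00941), where 17.9% of genes passed and 7.45% were higher, and was number 128 from the highest log2 fold change. Nqo1 stood at 915, 571 and 946 CPM in Olfr73 and 449, 672 and 1071 in Olfr160, with a log2 difference of 0.15 ± 0.45 (SE; edgeR adjusted p = 0.846). With only Olfr160 library 3, which had the highest share of the tagged receptor, the Acsm4 difference was 1.44 and no longer passed (edgeR adjusted p = 0.245). In that fit the lone library is assumed to vary like those of the other groups, and 61 of 17679 genes passed in all.

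The plot of fold changes under 6 treatments of the values shows that both comparisons with Olfr1507 gave large negative values for either gene throughout. One scaling used the summed counts of 18 olfactory transduction genes, a list that also holds Omp and receptor trafficking genes. It widened the Olfr1507 differences to -8.46 and -8.88 for Nqo1 and to -8.83 and -7.61 for Acsm4, against Olfr73 and Olfr160 in that order. In Olfr73 against Olfr160 that scaling lowered Acsm4 to 1.23 and moved Nqo1 to -0.42, without a call for Nqo1. It made most genes lower in Olfr1507, with 354 of the 16399 genes higher and 9231 lower than in Olfr73, and 116 higher and 13884 lower than in Olfr160. In Olfr73 over Olfr160 it gave 100 higher and 4926 lower, and it put the median of all genes at -1.04, -1.72 and -0.70.

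**Figure D2:**
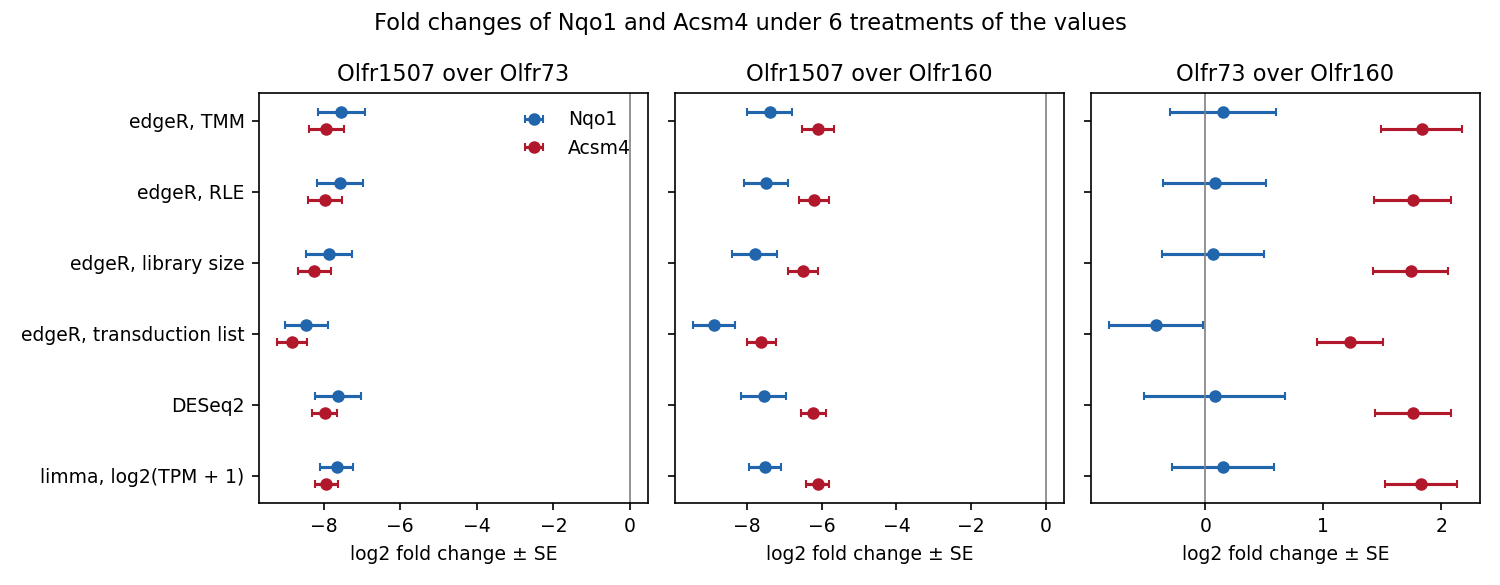
Log2 fold change with its standard error (x axis) of Nqo1 and Acsm4 in the 3 comparisons, for edgeR with 4 scalings, DESeq2 and limma on log2(TPM + 1). Acsm4 lies above 0 in Olfr73 over Olfr160 in all 6, while the Nqo1 estimate there ranges from -0.42 to 0.15.

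A ratio of TPM values within a library does not depend on how libraries are scaled to each other. Nqo1 stood at 121%, 58.8% and 93.8% of the Acsm4 level in Olfr73, at 87.5%, 133% and 98.8% in Olfr1507 and at 259%, 259% and 323% in Olfr160. The 2 enzymes were thus of similar abundance in the Olfr73 and Olfr1507 libraries, whereas Nqo1 exceeded Acsm4 in each Olfr160 library by more than in any other. Group means of the log2 ratio were -0.20 ± 0.53 for Olfr73, 0.069 ± 0.31 for Olfr1507 and 1.48 ± 0.18 for Olfr160 (SD, n = 3). It differed over the 3 groups (exact permutation test over all 1680 assignments, p = 0.0179, adjusted p = 0.0179 over 3 ratios). Each pair with Olfr160 gave p = 0.1 (exact permutation test, two-sided), which 3 libraries against 3 cannot go below, and Olfr1507 against Olfr73 gave 0.5.

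Omp, the olfactory marker protein of mature neurons, was used as a common denominator for the neuronal part of each library. Omp itself was higher in Olfr1507 than in Olfr73 (log2 0.54, edgeR adjusted p = 0.0383) and Olfr160 (1.13, edgeR adjusted p = 0.000816). It was also higher in Olfr73 than in Olfr160 (0.59, edgeR adjusted p = 0.0435), so ratios to Omp include these differences. Acsm4 TPM were 7.83%, 8.64% and 9.41% of Omp TPM in Olfr73, 3.25%, 3.64% and 3.94% in Olfr160 and 0.0125%, 0.0409% and 0.0199% in Olfr1507. The spread within a group was narrower than for the level itself in Olfr160, where the level had ranged from 263.5 to 517 TPM. Nqo1 TPM were 9.44%, 5.08% and 8.83% of Omp TPM in Olfr73, 8.43%, 9.41% and 12.7% in Olfr160 and 0.0109%, 0.0545% and 0.0196% in Olfr1507. Over the 3 groups the exact permutation p was 0.00357 for Acsm4 to Omp, the smallest possible (adjusted p = 0.0107), and 0.0179 for Nqo1 to Omp (adjusted p = 0.0179). Between Olfr73 and Olfr160 the log2 ratio to Omp differed by 1.26 for Acsm4 without overlap (exact permutation p = 0.1), and by -0.42 for Nqo1 with overlap (exact permutation p = 0.5).

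**Figure D3:**
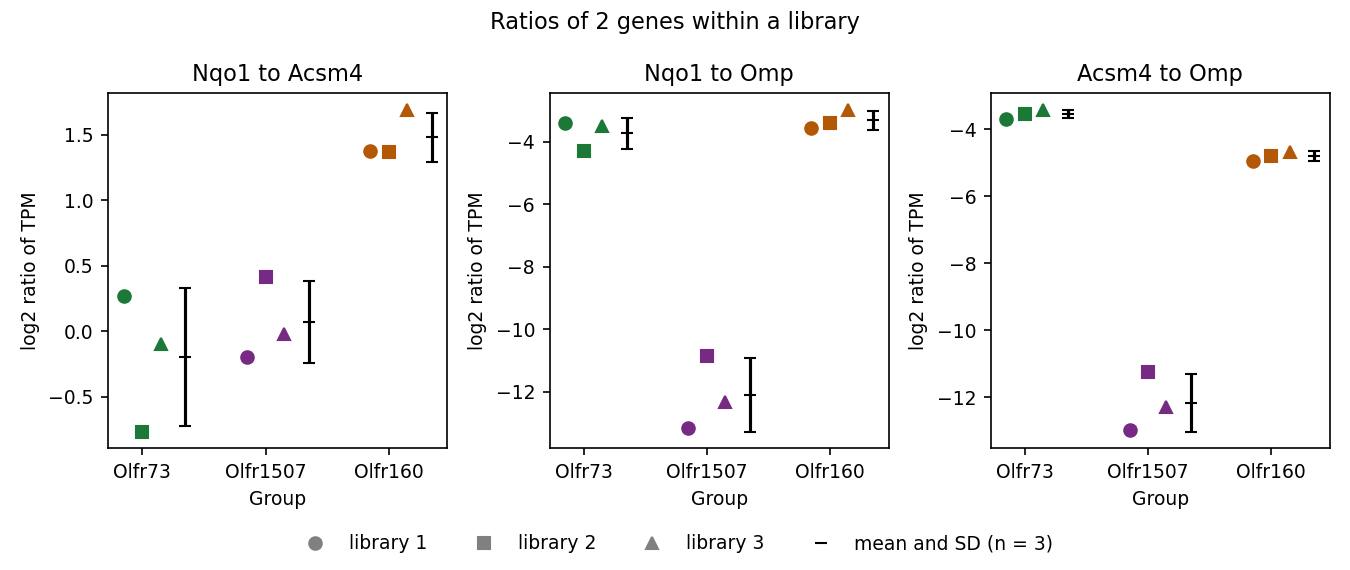
Log2 ratio of TPM within each library for Nqo1 to Acsm4 (left), Nqo1 to Omp (middle) and Acsm4 to Omp (right), with mean and SD of 3 libraries beside the points. In the left panel the Olfr160 points, 1.37 to 1.69, stand above all others, and in the other panels the Olfr1507 points lie below -10.

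The remaining signal in Olfr1507 rested on few reads. Nqo1 had 32, 235 and 55 counts there, or 1.46, 6.49 and 2.62 CPM before normalisation (95% Wilson intervals 1.03 to 2.055, 5.71 to 7.37 and 2.01 to 3.40). Acsm4 had 58, 278 and 88 counts, or 2.64, 7.67 and 4.18 CPM (2.04 to 3.41, 6.82 to 8.63 and 3.40 to 5.15). The intervals cover counting error only, and treat reads as independent although PCR copies were not marked by molecular identifiers. Both genes were lowest in library 1 and highest in library 2. Counts on Olfr genes other than Olfr1507 made up 0.0152%, 0.0391% and 0.0239% of the same libraries, the same order. Supporting and gland cell markers made up 0.0380%, 0.0529% and 0.0308%. The part of either in the remaining Nqo1 and Acsm4 reads was not tested.

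Among other zone markers, Robo2, a receptor for Slit proteins on dorsal axons, followed the 3 levels of Acsm4. It stood at 745 ± 48.2 CPM in Olfr73, 11.5 ± 5.54 in Olfr1507 and 233 ± 80.7 in Olfr160, and was 1.68 higher on the log2 scale in Olfr73 than in Olfr160 (SE 0.32, edgeR adjusted p = 0.0102). The remaining dorsal genes listed were near the floor. Sema3f, a secreted semaphorin, stood at or below 1.49 CPM in every library, and Msx1, a homeobox gene, did not pass the low-count filter. Nrp2, a semaphorin receptor of ventral axons, had the inverse order, with 7.59 ± 3.95 CPM in Olfr73, 133.8 ± 3.53 in Olfr1507 and 29.3 ± 5.07 in Olfr160. Ncam2, which encodes a cell adhesion protein, stood at 6.36 ± 3.48, 33.4 ± 4.63 and 17.6 ± 5.79 CPM. Its difference between Olfr73 and Olfr160 (edgeR adjusted p = 0.0323) no longer passed without Olfr73 library 1 or 3 or without Olfr160 library 1 or 2 (0.0533 to 0.121). Of the 6 ventral genes, 5 were called higher in Olfr1507 than in Olfr73 (14.5% of all genes) and 5 lower in Olfr73 than in Olfr160 (10.5%), and transduction-list scaling left 4 higher and 1 lower in the first. Against Olfr160, 4 were higher and 0 lower in Olfr1507 (20.7% and 27.7% of all genes), which depended on the scaling. Library size in place of TMM left 1 higher. On the transduction gene scale 0 rose and 4 fell, with a median of -0.84 beside -1.72 over all genes. In Olfr73 over Olfr160 the ventral median was -1.38, and -1.08 with Olfr160 library 3 alone. For genes other than Nqo1 and Acsm4, 16 passing differences between Olfr73 and Olfr160 were followed through the alternative settings. With Olfr160 library 3 alone, a fit with 1 library on that side, all 16 kept their direction. Direction alone does not show that these calls would hold in that library. Nrp2, for example, gave -1.75 in place of -1.95, and Robo2 gave 1.24 in place of 1.68. Other passing differences, such as those of Omp and Plcxd3, were not followed.

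Nqo2, the paralogue that uses dihydronicotinamide riboside in place of NADH, did not share the pattern of Nqo1. It stood at 7.44 ± 2.73 CPM in Olfr73, 7.95 ± 2.02 in Olfr1507 and 14.1 ± 2.53 in Olfr160, and passed in no comparison (edgeR adjusted p = 0.837 for Olfr1507 against Olfr73, 0.0568 for Olfr1507 against Olfr160 and 0.0767 for Olfr73 against Olfr160). On the TPM scale it stood at 5.55 ± 1.85 in Olfr73 and 10.1 ± 2.68 in Olfr160, far under Nqo1 in those groups. This gap is stated for Olfr73 and Olfr160 alone, since Nqo1 itself was at 2.38, 10.3 and 4.06 TPM in Olfr1507. Of the 10 tested quinone and carbonyl reductases other than Nqo1, 1 was higher and 4 lower in Olfr1507 than in Olfr73 (14.5% and 19.9% of all genes), and 2 were higher and 5 lower than in Olfr160 (20.7% and 27.7%). With transduction-list scaling, under which most genes were lower, the counts were 1 and 6 and 1 and 9. Cyb5r1, a cytochrome b5 reductase, was the gene higher in both, at 183 ± 28.2 CPM in Olfr73, 558 ± 20.6 in Olfr1507 and 102 ± 6.85 in Olfr160. Cbr2, a carbonyl reductase, stood at 309 ± 104, 30.6 ± 15.8 and 1649 ± 629 CPM, and Por, which passes electrons to cytochromes P450, at 445.5 ± 74.6, 528 ± 52.2 and 1082 ± 192 CPM.

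Other NRF2 targets differed in direction against Olfr73 and were more often lower than higher against Olfr160. Of the 26 tested besides Nqo1, 7 rose and 10 fell in Olfr1507 against Olfr73 (14.5% of all genes tested were higher and 19.9% lower), and their median was -0.36 on the log2 scale. Against Olfr160, 3 were higher and 13 lower (20.7% and 27.7% of all genes), with a median of -1.02. Without TMM, using library size, 3 rose and 12 fell in the first and 1 rose and 19 fell in the second. Over all 16399 genes that scaling gave 1047 higher and 4706 lower, then 1343 and 6262. Scaling to the transduction genes gave 1 against 18 and 1 against 24. Most of all genes fell under it as well, with 354 higher and 9231 lower, then 116 and 13884. In Olfr73 against Olfr160, 3 were higher and 12 lower (7.45% and 10.5% of all genes), with a median of -0.65. With Olfr160 library 3 alone the median was -0.52, and 0 passed either way in that fit with 1 library on that side.

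Hmox1, which encodes the haem-degrading oxygenase and is among the best known NRF2 targets, ran opposite to Nqo1. It stood at 27.9, 16.3 and 26.3 CPM in Olfr73, 125, 110.1 and 100.4 in Olfr1507 and 17.2, 19.6 and 20.6 in Olfr160. All Olfr1507 libraries lay above the rest, with log2 differences of 2.25 (SE 0.20, edgeR adjusted p = 0.00011) against Olfr73 and 2.55 (SE 0.21, edgeR adjusted p = 2.84e-05) against Olfr160. Txnrd1, thioredoxin reductase, stood at 66.7 ± 7.62, 71.8 ± 1.18 and 79.7 ± 6.40 CPM in Olfr73, Olfr1507 and Olfr160 and passed in no comparison (edgeR adjusted p 0.143 to 0.487). Gclc, the catalytic subunit of glutathione synthesis, had means of 7.73, 5.18 (libraries from 3.18 to 8.12) and 10.55 CPM and did not pass either. Gclm, another listed target, had the calls of Nqo1 at a far smaller size. It was lower in Olfr1507 than in Olfr73 (log2 -0.99, edgeR adjusted p = 0.0121) and Olfr160 (-0.65, edgeR adjusted p = 0.0470). Between Olfr73 and Olfr160 Gclm did not pass (edgeR adjusted p = 0.341). Glutathione S-transferase Gstm1 stood at 438 ± 156, 42.5 ± 13.0 and 2306 ± 838 CPM and Gsta4 at 17.1 ± 3.27, 1.96 ± 0.908 and 90.7 ± 39.0 CPM, both highest in Olfr160 and lowest in Olfr1507. Slc7a11, a cystine transporter gene singled out after its values were seen, was lower in Olfr1507 than in both other groups (edgeR adjusted p = 0.0279 and 0.0219), but had 1 count there and at most 3.40 CPM in any library.

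Nfe2l2, Keap1 and Ahr transcripts were present in all groups. Nfe2l2 stood at 478, 575 and 547 CPM in Olfr73, 908, 944 and 847 in Olfr1507 and 345, 436 and 504 in Olfr160. It was 0.75 higher on the log2 scale in Olfr1507 than in Olfr73 (SE 0.15, edgeR adjusted p = 0.00435) and 1.07 higher than in Olfr160 (SE 0.15, edgeR adjusted p = 0.000416), but turned to -0.13 and -0.46 with transduction-list scaling. Keap1 stood at 15.1 ± 2.28, 26.5 ± 6.67 and 17.6 ± 5.17 CPM in Olfr73, Olfr1507 and Olfr160, and Ahr at 21.5 ± 7.63, 22.6 ± 3.23 and 13.1 ± 3.43 CPM. Of 15 tested regulators, 3 were higher and 3 lower in Olfr1507 than in Olfr73, near the 14.5% and 19.9% of all genes, and 5 were higher and 3 lower than in Olfr160 (20.7% and 27.7%). On the transduction gene scale, where most genes were lower, 0 were higher, and 11 and 15 were lower.

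Targets of the aryl hydrocarbon receptor that passed were lower in Olfr1507 than in either other group. Of the 7 tested besides Nqo1, 4 were lower in Olfr1507 than in Olfr73, 6 lower in Olfr1507 than in Olfr160 and 4 lower in Olfr73 than in Olfr160, with 0 higher in each. Over all genes tested 19.9%, 27.7% and 10.5% were lower. With Olfr160 library 3 alone, 6 were tested, and 3 were lower in Olfr1507 and 0 in Olfr73. Cyp1a2, a cytochrome P450 also used here as a supporting cell marker, stood at 131 ± 47.8 CPM in Olfr73, 10.5 ± 2.85 in Olfr1507 and 592 ± 166 in Olfr160. Aldh3a1, an aldehyde dehydrogenase, stood at 6.69 ± 2.98, 0.980 ± 0.573 and 51.4 ± 21.4 CPM. Both were lower in Olfr73 than in Olfr160, with log2 fold changes of -2.18 (SE 0.32, edgeR adjusted p = 0.00401) and -2.94 (SE 0.48, edgeR adjusted p = 0.00553), whereas Nqo1 did not pass there.

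**Figure D4:**
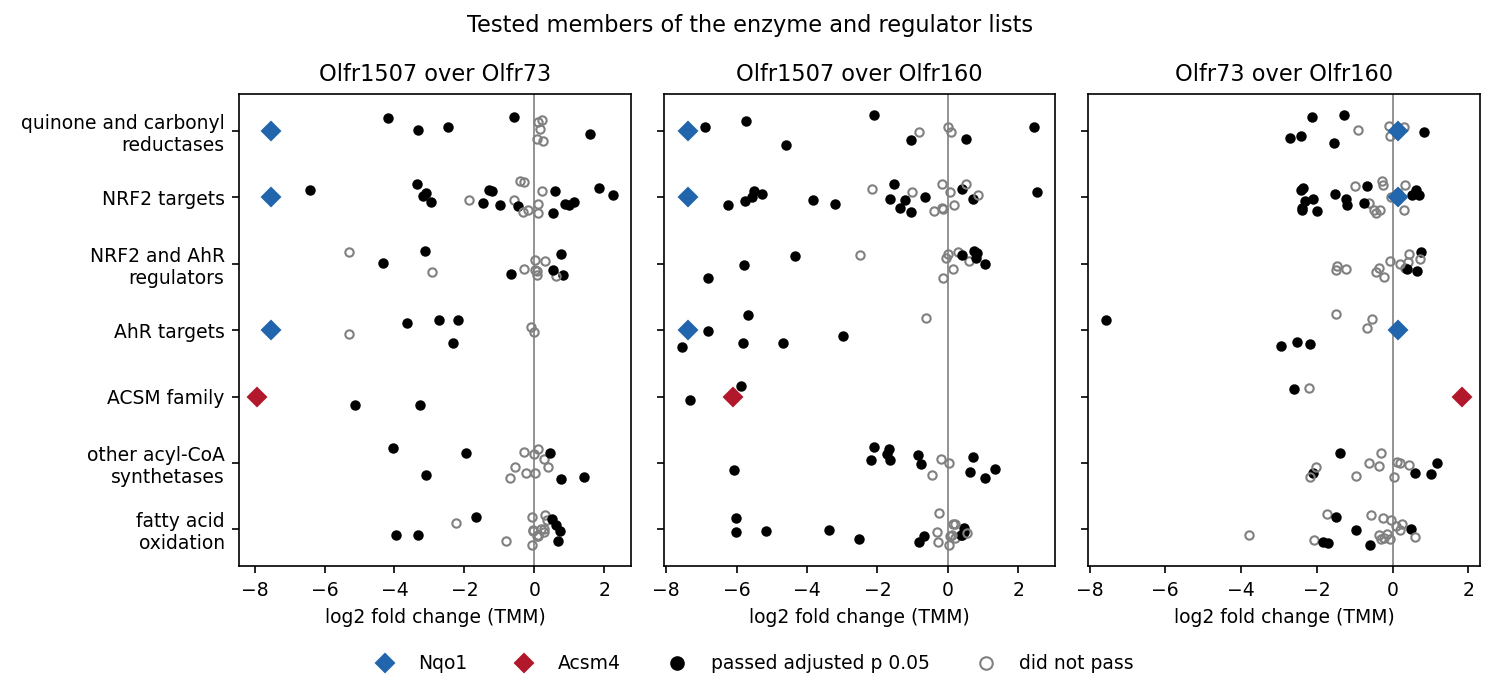
Log2 fold change (x axis) of each tested member of 7 lists of enzymes and regulators in the 3 comparisons, filled where the edgeR adjusted p was under 0.05, with Nqo1 and Acsm4 as diamonds. Fitted values of genes with 0 counts in a group depend on the prior count; Nqo1 and Acsm4 lie left of 0 in both comparisons with Olfr1507, at -6.10 or below, and Acsm4 alone of its family lies right of 0 in Olfr73 over Olfr160.

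The relatives of Acsm4 in its gene cluster were low and did not share its order of groups. Acsm2 and Acsm5 had 0 counts in all libraries. Acsm1 had 1 count in the Olfr1507 libraries together, 49 in those of Olfr73 and 223 in those of Olfr160. It passed against both (edgeR adjusted p = 0.0422 and 0.00723), but against Olfr73 not with the replicate block (0.0842) or when Olfr73 library 1 or 2 or any of the Olfr1507 libraries was left out (0.0714 to 0.130), nor against Olfr160 library 3 alone (0.0927). Acsm3 stood at 6.56, 9.18 and 4.94 CPM in Olfr73, 0.864, 0.957 and 0.223 in Olfr1507 and 53.4, 42.8 and 29.1 in Olfr160. It was lower in Olfr73 than in Olfr160 by 2.598 on the log2 scale (SE 0.40, edgeR adjusted p = 0.00464), opposite to Acsm4. Its expected counts were not whole in any library, so reads shared with other sequences were divided by the authors' counting.

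The levels of Acsm3 and Gstm1 had the group order of the supporting and gland cell markers, Olfr160 above Olfr73 above Olfr1507, and Acsm4 did not. Acsm4 was highest in Olfr73, where these markers made up 0.424% to 0.758% of counts, and lower in Olfr160, where they made up 2.27% to 3.94%. Within Olfr160 both Nqo1 and Acsm4 were highest in library 3, in which the marker share was 2.27%, against 3.83% and 3.94% in libraries 1 and 2. The share of mature neuron markers was also highest in library 3, at 4.70% against 2.99% and 3.65%. Acsm3 and Gstm1 were lower in library 3 than in the other Olfr160 libraries, at 29.1 and 1461 CPM. The part of supporting cells or of the neuron share in the Nqo1 and Acsm4 levels was not tested.

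**Figure D5:**
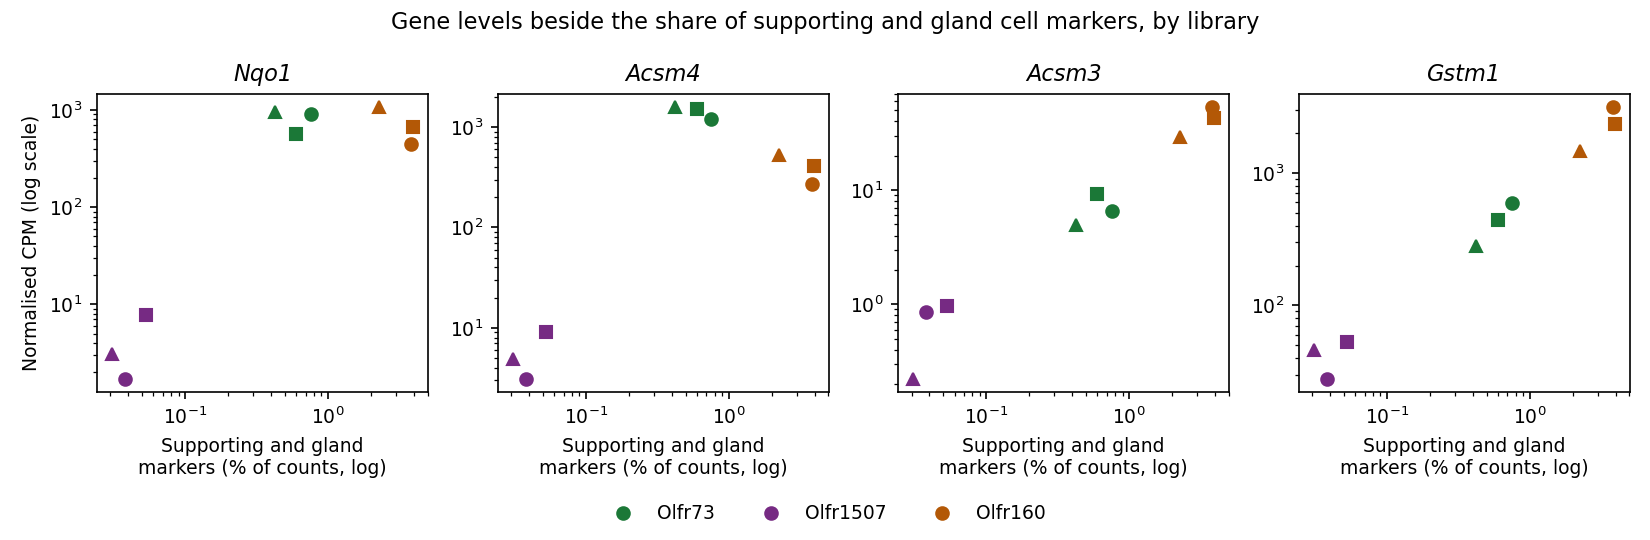
Normalised CPM (y axis, log) of Nqo1, Acsm4, Acsm3 and Gstm1 in each library against the share of counts on supporting and gland cell markers (x axis, log), coloured by group, with circles, squares and triangles for libraries 1 to 3. Acsm3 and Gstm1 are highest in the Olfr160 libraries, while Acsm4 is higher in the Olfr73 libraries, at 0.424% to 0.758% on the x axis, than in those of Olfr160.

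Of 15 other acyl-CoA synthetases tested, 3 were higher and 3 lower in Olfr1507 than in Olfr73, near the 14.5% and 19.9% of all genes. Against Olfr160, 4 were higher and 8 lower (20.7% and 27.7% of all genes), and in Olfr73 against Olfr160, 3 were higher and 2 lower (7.45% and 10.5%). Under transduction-list scaling, with most genes lower in Olfr1507, these became 1 and 9, 0 and 14, and 1 and 8. Acss3, a mitochondrial short-chain acyl-CoA synthetase, had the group order of Acsm4. It stood at 163, 153 and 201 CPM in Olfr73, 26.7, 17.5 and 16.0 in Olfr1507 and 73.4, 98.1 and 84.0 in Olfr160, with no overlap between groups. Acss2, the cytosolic acetyl-CoA synthetase, stood at 79.1 ± 8.78, 20.6 ± 1.24 and 34.8 ± 9.81 CPM in the same order of groups. Between Olfr73 and Olfr160 Acss3 differed by 1.02 on the log2 scale (SE 0.20, edgeR adjusted p = 0.0114), or 0.35 without a call under that scaling, and Acss2 by 1.19 (SE 0.19, edgeR adjusted p = 0.00532). Acsl6, a long-chain synthetase of neurons, had the inverse pattern against Olfr1507. It stood at 1103 ± 21.7 CPM in Olfr73, 1868 ± 49.3 in Olfr1507 and 732 ± 176 in Olfr160, log2 differences of 0.76 and 1.35 for Olfr1507 that became -0.13 and -0.16 on the transduction gene scale. Its difference of 0.59 between Olfr73 and Olfr160 (edgeR adjusted p = 0.0335) became -0.034 there, and no longer passed when any of the Olfr73 libraries or Olfr160 library 2 was left out (0.0642 to 0.113). Acss1, the mitochondrial acetyl-CoA synthetase, stood at 30.2 ± 3.22, 80.8 ± 8.68 and 38.9 ± 6.60 CPM, and its log2 fold change of 1.05 against Olfr160 turned to -0.48 with that scaling.

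Mitochondrial fatty acid oxidation uses acyl-CoA. Of 21 of its genes tested, 4 rose and 3 fell in Olfr1507 against Olfr73, beside 14.5% and 19.9% of all genes, with a median of 0.10 on the log2 scale beside -0.15 over all genes. Against Olfr160, 4 were higher and 7 lower (20.7% and 27.7% of all genes), with a median of 0.032, and in Olfr73 against Olfr160, 1 was higher and 5 were lower (7.45% and 10.5%). Library size in place of TMM gave 2 and 4, then 0 and 12. The medians were -0.21 and -0.39, beside -0.47 and -0.56 over all genes. All 16399 genes gave 1047 higher and 4706 lower, then 1343 and 6262. On the transduction gene scale 0 rose, and 11 and 21 fell. The medians there were -0.79 and -1.54, beside -1.04 and -1.72 over all genes, of which 9231 and 13884 were lower. Acadm, the medium-chain acyl-CoA dehydrogenase, stood at 66.1 ± 26.8 CPM in Olfr73, 37.8 ± 2.99 in Olfr1507 and 217 ± 67.5 in Olfr160, and was lower in Olfr73 than in Olfr160 (-1.72 ± 0.31 SE on the log2 scale, edgeR adjusted p = 0.00827). Cpt1a, the carnitine transferase for long chains, stood at 15.1 ± 7.73, 1.52 ± 1.17 and 53.65 ± 8.81 CPM. It passed as lower in Olfr73 than in Olfr160 (edgeR adjusted p = 0.0354), but not with the replicate block (0.0612), nor when any of the Olfr160 libraries or Olfr73 library 2 or 3 was left out (0.0503 to 0.103). For glycine conjugation, a route for medium-chain acyl-CoA in liver, 2 of 4 genes passed the filter and none exceeded 1.63 CPM in any library. At these low levels Glyatl3 was lower in Olfr1507 than in Olfr73 (edgeR adjusted p = 0.00141) and Olfr160 (edgeR adjusted p = 0.00118). The other tested gene did not pass, beside 19.9% and 27.7% of all genes lower.

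Across the 9 libraries Nqo1 and Acsm4 had a Pearson r of 0.98 on log2(CPM + 1). Of 9272 genes compared with Nqo1, Acsm4 was number 17 in likeness, and in the reverse comparison Nqo1 was number 31. The 5 genes most like Nqo1 were Mcoln3, an endolysosomal cation channel gene, Pcdh7, Ano6, Tmtc2 and Prxl2a, with r between 0.985 and 0.993. The 5 most like Acsm4 were Robo2, Fcho2, Prxl2a, Plcxd3 and Rasgrp4, with r between 0.989 and 0.996. Mcoln3 stood at 286 ± 16.5 CPM in Olfr73, 12.8 ± 1.45 in Olfr1507 and 225 ± 74.5 in Olfr160. Rasgrp4, a Ras exchange factor gene, stood at 660.1 ± 320.1, 3.69 ± 2.02 and 268 ± 70.1 CPM. Of these top 5, 0 stayed for either gene when ranks (Spearman) replaced values. The points share 3 groups and their library composition, so these are descriptions of likeness.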

How the data were processed

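Per the submitters' processing notes, reads were aligned to mm10 with STAR 2.6.1 and genes quantified with RSEM 1.3.1, and DESeq2 is named without a version. Which annotation was used is not given in the sources used here. As deposited, the files hold RSEM expected counts per gene, of which 4.06% to 5.54% per library were not whole, and TPM, which the authors scaled to an equal sum per library. Columns carry older receptor names (M72, MOR174, MOR28), matched through RefSeq synonyms.

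Expected counts were rounded and tested on all 9 libraries with edgeR 4.0.16 (R 4.3.3; filterByExpr by group, TMM, robust quasi-likelihood F test, Benjamini-Hochberg adjusted p of 0.05 over 16399 genes). The SE was derived from the estimate and its F statistic. Ratios of TPM used no pseudocount and exact permutation tests. DESeq2 1.42.0 and limma 3.58.1 served as alternatives, with other scalings, filters, samples and a replicate block. Leaving out each library in turn was among them. The fit was tested on simulated data with 200 genes changed in Olfr1507. Against Olfr160 it called 34% of the 2-fold and 84% of the 4-fold changes, with 7 false among 125 calls. In that simulation a difference near 2-fold could go without a call. In the real comparison 48.4% of genes passed, far more than were changed in the simulation, so the rates there may differ. The members and gene lists were chosen with earlier results of these data known, and the text names part of the genes that the rule for named genes allows: preset pathway genes, up to 3 called members per list and comparison, and 5 genes most like each member.

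Same-numbered libraries of Olfr73 and Olfr160 deviated weakly together (r = 0.101, 0.105 and 0.188), so numbers may pair them, from the data and not from the labels. The main edgeR and permutation tests left this possible pairing out, and the replicate block took it in as an alternative. With the block the Acsm4 difference between Olfr73 and Olfr160 was 1.87 (edgeR adjusted p = 0.0046). In the other 2 comparisons r ranged from -0.297 to 0.144, and the block was fitted over all 9 libraries. Over all 9 pairs, 4 exceeded 0.1.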

Additional observations from a re-analysis of the deposited data

How the results depend on the processing

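The calls of Nqo1 and Acsm4 against Olfr1507 held under every alternative run, with adjusted p of at most 0.000796 for Nqo1 and 0.000212 for Acsm4. Leaving out 1 library gave log2 fold changes of -8.39 to -7.18 (Olfr73) and -8.24 to -6.99 (Olfr160) for Nqo1, and of -8.47 to -7.64 and -6.64 to -5.81 for Acsm4. In Olfr73 over Olfr160, Acsm4 ranged from 1.61 to 2.07 without 1 library (adjusted p of at most 0.0438) and lost its call with Olfr160 library 3 alone (1.44). Nqo1, not called there, ranged from -0.11 to 0.53 without 1 library and turned to -0.42 with transduction-list scaling and to -0.41 with Olfr160 library 3 alone. The Nqo1 to Acsm4 log2 ratio of Olfr1507 over Olfr73, 0.26, ranged from -0.020 to 0.50 without 1 library.

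Genes called numbered 5640 in Olfr1507 over Olfr73, 7939 in Olfr1507 over Olfr160 and 2936 in Olfr73 over Olfr160. They moved to 9585, 14000 and 5026 with transduction-list scaling, and the last 2 to 3337 and 61 with Olfr160 library 3 alone. The last moved to 4453 with limma-voom. Without 1 library they ranged from 3657 to 5323, from 6391 to 7537 and from 976 to 3062. Of the calls, 42.2%, 42.8% and 41.6% were higher with TMM, 18.2%, 17.7% and 30.6% with library size alone and 3.69%, 0.829% and 1.99% with transduction-list scaling. That scaling also turned Nfe2l2 (-0.13 and -0.46), Acsl6 (-0.13, -0.16 and, in Olfr73 over Olfr160, -0.034) and Acss1 (-0.48 against Olfr160). The cause of these changes was not tested. Of the 5 genes most like each member, 3 stayed with log2(TPM + 1) and 0 with ranks, for Nqo1 and for Acsm4 alike.

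With the replicate number as a block, Acsm4 gave -8.02, -6.15 and 1.87 and Nqo1 -7.66, -7.40 and 0.26 in the order of the comparisons above, with the same calls. Among the calls of other genes that were followed through the alternatives, the block ended those of Acsm1 (Olfr1507 over Olfr73) and Cpt1a (Olfr73 over Olfr160) and no other. Over all alternatives, 933 of 986 values of 53 such calls kept direction and call, 47 kept direction without the call and 6 turned. Of 1120 list counts, 161 moved by over 1.5 times.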
